A study of Mus musculus with 16 samples.

Results

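The 9 genes Hebp1, Gsg1, Eps8, Sema4b, Cib1, Plekha7, Nucb2, Gprc5b and Tmem242, of 30819 genes in the deposited matrix, lie in stretches of mouse chromosomes 6, 7 and 17 in which differences between C3 knockout and C3 wild-type mice cluster. They were picked by symbol because of those differences, so their genotype values are a description and carry no test here. The question put to them was which differences are equal in tumour macrophages and monocytes and which depend on the cell type. RNA was sequenced from C57BL/6J mice, either wild type or knockout for C3, that had received 500000 MN/MCA1 cells, a transplantable mouse fibrosarcoma line, under the skin. Tumours of both genotypes were taken at day 21, and the C3 deletion was the labelled difference. Both populations were sorted from each tumour as CD11b+ CD45+ cells without CD11c or Ly6G. Within that gate macrophages carried F4/80 and lacked Ly6C, and monocytes carried Ly6C and lacked F4/80. The 16 libraries formed 4 groups of 4 mice: mice 1 to 4 were wild type, mice 6 to 9 were knockout, and each mouse gave both cell types. The sources used here give neither ages nor the design of the C3 allele.

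C3 is the hub of the complement system, and its cleavage products mark targets and recruit myeloid cells. Ly6C-positive monocytes enter tumours from the blood and can become F4/80-positive macrophages there, so both sorted populations belong to the same lineage at different stages. The 9 genes share no pathway: they encode a haem-binding protein, an actin regulator, a semaphorin, calcium-binding proteins, a junction protein, an orphan receptor and other membrane proteins.

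Tmem242 was the gene whose knockout difference was closest in both cell types, at 4.84-fold higher in macrophages and 4.86-fold higher in monocytes. Hebp1 and Plekha7 were also higher in knockout cells of both types, but by unlike ratios. These were 21.7 in macrophages and 84.8 in monocytes for Hebp1, and 39.6 and 12.7 for Plekha7. Neither gap between cell types was called in the main fit. That of Hebp1 was called in 7 of 33 alternatives and that of Plekha7 in 0 of 33. Nucb2 and Eps8 were lower in both, with the deeper loss in monocytes. Sema4b was lower in both, with the deeper loss in macrophages. Cib1 and Gsg1 were lower in knockout macrophages and were not called in monocytes by the main fit. In monocytes Cib1 was at 0.839 of wild type without overlap, and the Gsg1 groups overlapped. Gprc5b was higher in knockout cells at very different levels in each cell type.

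On GRCm38, the build of the files, Hebp1 spans chr6:135137522-135198022, Gsg1 chr6:135237326-135254351 and Eps8 chr6:137477245-137654876, all on the minus strand. Sema4b spans chr7:80186841-80226527 on the plus strand and Cib1 chr7:80227147-80232813 on the minus strand, so that their 3′ ends face each other across 619 bases. Plekha7 spans chr7:116123485-116308376 (minus), Nucb2 chr7:116504369-116540584 (plus) and Gprc5b chr7:118972047-118995211 (minus). Tmem242 spans chr17:5410870-5440259 (minus), 51.8 Mb from C3 on the same chromosome. All 9 are protein-coding in GENCODE M21.

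Promoters are printed for 4 genes. Hebp1 stands for the highest ratio among the well-counted genes, Tmem242 for near-equal differences and Nucb2 for a difference that depended on cell type. Gprc5b was called for such a dependence in the main fit, but in just 7 of 33 alternatives. Each promoter is the 250 bases before the RefSeq start (GRCm38.p6), 5′ to 3′ on the gene's strand, with capitals for motif matches on either strand. The motifs searched were a GC box spelled GGGCGG, the promoter element known by its letters CCAAT, an ETS element spelled GAGGAA and, for TATA-binding protein, the letters TATAAA. Only exact matches were counted, and shorter or other spellings of ETS sites were not searched. None of these motif matches overlaps another in the windows printed.
Hebp1: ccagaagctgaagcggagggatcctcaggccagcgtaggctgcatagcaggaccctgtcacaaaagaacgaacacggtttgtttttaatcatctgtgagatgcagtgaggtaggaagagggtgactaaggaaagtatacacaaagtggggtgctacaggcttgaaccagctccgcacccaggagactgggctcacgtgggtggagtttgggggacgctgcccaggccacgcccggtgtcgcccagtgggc
Nucb2: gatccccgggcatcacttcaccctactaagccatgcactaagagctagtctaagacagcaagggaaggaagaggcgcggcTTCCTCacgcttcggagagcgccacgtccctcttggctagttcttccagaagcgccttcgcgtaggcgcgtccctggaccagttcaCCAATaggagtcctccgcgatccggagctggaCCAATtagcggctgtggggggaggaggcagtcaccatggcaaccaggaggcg
Gprc5b: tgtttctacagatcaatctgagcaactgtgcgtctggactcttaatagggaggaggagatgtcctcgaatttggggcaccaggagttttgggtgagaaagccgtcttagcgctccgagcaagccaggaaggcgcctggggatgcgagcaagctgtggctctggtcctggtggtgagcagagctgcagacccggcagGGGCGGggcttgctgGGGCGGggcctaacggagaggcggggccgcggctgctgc
Tmem242: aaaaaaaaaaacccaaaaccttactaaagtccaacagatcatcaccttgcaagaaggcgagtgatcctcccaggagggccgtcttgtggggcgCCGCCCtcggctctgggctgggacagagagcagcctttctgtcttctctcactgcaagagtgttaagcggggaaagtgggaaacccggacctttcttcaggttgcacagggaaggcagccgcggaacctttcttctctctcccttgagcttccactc
They lie at chr6:135168216-135168465 (minus), chr7:116504119-116504368 (plus), chr7:118995212-118995461 (minus) and chr17:5440261-5440510 (minus). Hebp1 holds none of these exact spellings, Nucb2 holds 2 CCAAT elements and 1 GAGGAA, Gprc5b holds 2 GC boxes and Tmem242 holds 1 GC box. Among 32851 RefSeq promoters of this length, 32.7% hold the GC box, 33.8% the CCAAT element, 12.4% the TATA element and 23.3% the letters GAGGAA, so matches of this kind are common. Their GC content is 57.6% in Hebp1, 60.8% in Nucb2, 62.4% in Gprc5b and 54.4% in Tmem242, against a median of 52.4% over all. RefSeq's Hebp1 start is 29.8 kb inside the GENCODE gene. Promoter entries matched 7 of the 9 genes, and the other two are Eps8 and Plekha7.

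Levels are given as normalized reads, which are reads recovered from the deposited log2 values and divided by a factor for library depth. Libraries held from 18689709 to 29035413 reads. C3 itself stood at 4008 ± 858 normalized reads (SD, n = 4) in wild-type macrophages and 1234 ± 168 in knockout macrophages, and at 15158 ± 718 and 4925 ± 288 in monocytes. Knockout levels were thus 30.8% and 32.5% of wild type, and the groups did not overlap. Reads were not resolved to the deleted part of the gene. Adgre1, which encodes F4/80, was 4.60-fold higher in wild-type macrophages than monocytes, and Ly6c2 averaged 10.3 normalized reads in wild-type macrophages against 16216 in monocytes, as the sort gates require. Ly6g averaged at most 1.65 normalized reads in any group, but other genes of the neutrophil list were well above that in monocytes. Wild-type and knockout monocytes averaged 1782 and 417 for S100a8, 466 and 352 for S100a9, and 118 and 31.3 for Cxcr2. Mmp8 averaged 3416 and 2469, and Csf3r was higher in knockout, at 4086 and 4597. None of the 5 neutrophil genes tested in monocytes was called between genotypes. Marker sums of some other cells moved with genotype: all 4 tested red blood cell genes were lower in knockout macrophages, where their sum ran from 145 to 242 against 428 to 1272 in wild type, and none of 4 passed in monocytes (309 to 1274 against 1430 to 3569). The sum of 6 fibroblast and sarcoma markers ran from 198 to 1047 in knockout and from 908 to 2602 in wild-type macrophages, and in monocytes from 785 to 6164 and from 3821 to 7318, with none called in either. In addition, 3 of 10 macrophage markers were lower in knockout macrophages. Kdr carried most of the sum of 3 endothelial markers, which ran from 844 to 986 in knockout and from 290 to 467 in wild-type macrophages, with 1 of 3 called higher. None of the tested markers of neutrophils, dendritic cells, T and NK cells and B cells was called in macrophages, and in monocytes 1 dendritic cell marker was higher, 1 lower, 1 endothelial marker higher and 1 of 8 monocyte markers lower in knockout. Cd209a averaged 9.12 in wild-type and 421 in knockout monocytes, and Flt3 85.8 and 206. Xcr1 was also higher on average there, and Itgax (4421 and 2649), Zbtb46 and Ccr7 were lower. The macrophage marker Mrc1 averaged 329 and 1383 in monocytes, where none of 10 macrophage markers was called. The part of these in the differences below was not tested, and in sorted bulk RNA fewer cells of a type and less RNA per cell cannot be told apart.

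**Figure D1:**
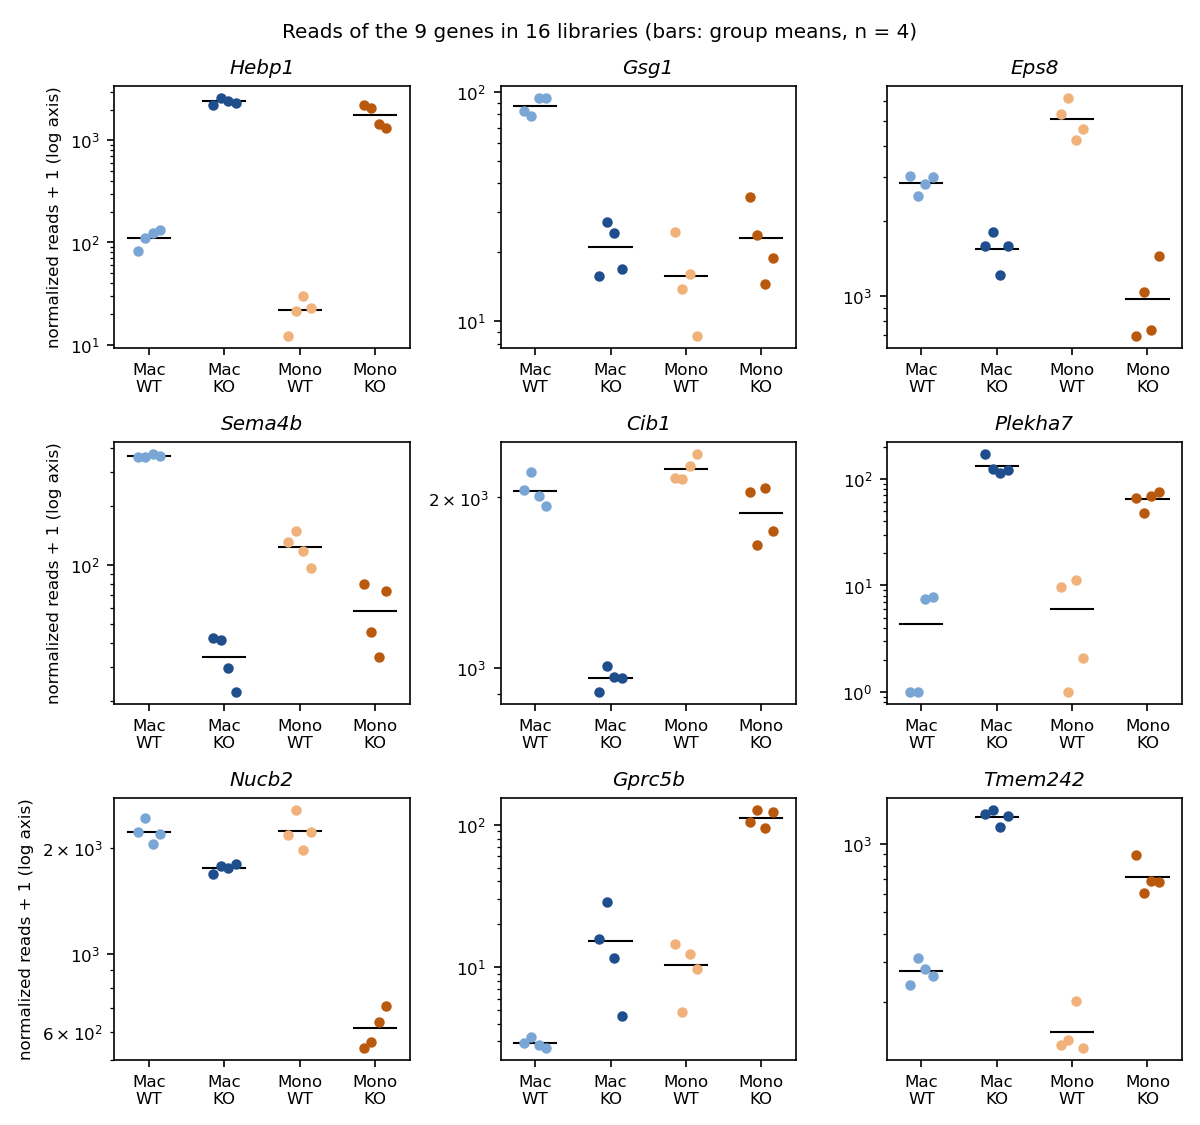
Normalized reads plus 1 (log axis) of the 9 genes in each of the 16 libraries, by cell type and genotype (WT wild type, KO C3 knockout); each point is 1 mouse and each bar the arithmetic mean of 4. Tmem242 shifts upward alike in both cell types, whereas Nucb2 drops to between 538 and 711 in knockout monocytes.

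Hebp1 encodes a haem-binding protein whose cleaved N-terminal peptide attracts leukocytes through formyl peptide receptors. It had 80.8, 109, 123 and 130.2 normalized reads in wild-type macrophages (mice 1 to 4, as in all lists below). In knockout macrophages (mice 6 to 9) it had 2217, 2600.2, 2445 and 2342. Every knockout library was far above every wild-type library, and the means were 111 ± 21.8 and 2401 ± 162 (SD, n = 4), a ratio of 21.7. Wild-type monocytes had 11.1, 20.5, 29.1 and 21.8 normalized reads, and knockout monocytes 2202, 2055, 1442 and 1305. The means were 20.6 ± 7.39 and 1751 ± 443, a ratio of 84.8 with a 95% counting interval of 64.4 to 103. Levels thus ranked in the order wild-type monocytes, wild-type macrophages, knockout monocytes and knockout macrophages, and no adjoining groups overlapped. On the deposited log2 scale, which is compressed and understates folds, the knockout difference was 3.20 in macrophages and 3.97 in monocytes.

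Gsg1, first described as a germ cell gene, showed a genotype gap in macrophages. Its wild-type macrophages had 81.7, 77.4, 93.3 and 93.0 normalized reads and its knockout macrophages 14.7, 26.2, 23.3 and 15.9. The wild-type group stood above every knockout library, with means of 86.3 ± 8.01 and 20.05 ± 5.59 (SD, n = 4) and a ratio of 0.232. Wild-type monocytes had 23.5, 12.8, 15.03 and 7.63 normalized reads and knockout monocytes 33.8, 22.9, 13.5 and 17.9. These monocyte groups overlapped, and the deposited log2 difference was 0.29 (95% interval -0.16 to 0.74) against -1.36 in macrophages. Wild-type macrophages were the high group, and the other three overlapped one another.

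Reads of overlapping genes bear on both, since the library kit does not mark strand. Fam234b runs on the opposite strand and overlaps Gsg1 by 7630 bases and Hebp1 by 46. Its mean went from 1883 to 1588 normalized reads in macrophages and from 778 to 1174 in monocytes (knockout second). These shifts are of the same sign as those of Gsg1 in each cell type and much smaller as ratios in macrophages. A predicted gene on the opposite strand inside Hebp1, Gm19434, went the other way from Hebp1 in macrophages, from 81.6 ± 21.3 to 2.89 ± 1.66 normalized reads (SD, n = 4).

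Eps8 encodes an actin capping and bundling protein that, with Abi1 and Sos1, activates Rac. Its wild-type macrophages had 3022, 2521, 2818 and 2988 normalized reads and its knockout macrophages 1588, 1813, 1219 and 1581. Wild-type monocytes had 5354, 6196, 4193 and 4655, and knockout monocytes 693, 1039, 730.3 and 1450.3. Wild type was higher than knockout in both cell types without overlap, while the 2 knockout groups overlapped each other. The ratio of knockout to wild type was 0.546 in macrophages, with means of 2837 ± 229 and 1550 ± 246 (SD, n = 4). In monocytes it was 0.192, with means of 5099 ± 873 and 978 ± 351. The deposited log2 differences were -0.63 and -1.73.

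Sema4b encodes a transmembrane semaphorin, a family of guidance and cell-contact signals. It had 358, 357, 371 and 360.0 normalized reads in wild-type macrophages and 41.4, 40.1, 28.6 and 21.3 in knockout macrophages. The wild-type values were tightly grouped and far above the knockout ones, with a ratio of 0.0908 between means of 362 ± 6.53 and 32.8 ± 9.63 (SD, n = 4). Wild-type monocytes had 129.7, 149, 116 and 95.9 and knockout monocytes 78.9, 44.6, 32.8 and 72.3. Those groups came close without overlap, at a ratio of 0.466 between 123 ± 22.3 and 57.2 ± 22.01. The deposited log2 difference was -2.37 in macrophages and -0.76 in monocytes.

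Cib1 encodes a small calcium-binding protein that binds integrin tails and the kinase Pak1. Its wild-type macrophages had 2063, 2217, 2007 and 1934 normalized reads and its knockout macrophages 906, 1007, 965 and 959. Wild-type monocytes had 2164, 2151, 2267 and 2386, and knockout monocytes 2045, 1651, 2080.1 and 1744. Knockout macrophages were the low group, and wild-type macrophages overlapped both monocyte groups. The ratio of knockout to wild type was 0.467 in macrophages (means 2055 ± 119.9 and 959 ± 41.4, SD, n = 4). In monocytes it was 0.839 (2242 ± 109 and 1880.1 ± 215), where no libraries overlapped, and the deposited log2 differences were -0.77 and -0.19 (95% interval of the latter -0.33 to -0.05).

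Plekha7 encodes an adherens junction protein that binds the delta catenin encoded by Ctnnd1. Wild-type macrophages had 0, 0, 6.46 and 6.76 normalized reads and knockout macrophages 170.2, 122, 111 and 119.7. Wild-type monocytes had 8.65, 0, 10.3 and 1.09 and knockout monocytes 65.8, 47.0, 68.5 and 73.9. The wild-type groups overlapped near zero, and both knockout groups lay above them, macrophages highest. Wild-type macrophages held 15 reads in all against 574 in knockout, a ratio of 39.6 with a 95% counting interval of 22.1 to 66.1. Monocytes held 19 against 271, a ratio of 12.7 (7.69 to 20.6). PCR reads are not independent molecules, so counting intervals here cover counting error only. The deposited log2 differences were 2.90 and 1.96.

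Nucb2 encodes a calcium-binding protein that is the precursor of nesfatin. It had 2226, 2443, 2055 and 2193 normalized reads in wild-type macrophages and 1683, 1775, 1757 and 1805 in knockout macrophages. Wild-type monocytes had 2179, 2571, 1973 and 2218, and knockout monocytes 538, 562, 639 and 711. The wild-type groups overlapped fully, knockout macrophages sat a little below them, and knockout monocytes were far lower than every other library. The ratio was 0.787 in macrophages (means 2229.5 ± 161 and 1755 ± 51.8, SD, n = 4) and 0.274 in monocytes (2235 ± 248 and 612 ± 78.5). The deposited log2 differences were -0.25 and -1.30.

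Gprc5b encodes an orphan receptor of the retinoic acid-inducible family of G protein-coupled receptors. Its wild-type macrophages had 1.90, 2.24, 1.85 and 1.69 normalized reads and its knockout macrophages 14.7, 27.9, 10.6 and 3.55. These are 8 and 64 reads in all, a ratio of 7.38 with a counting interval of 3.68 to 18.6, and the gene did not pass the filter on low values in macrophages. Wild-type monocytes had 13.6, 3.85, 11.3 and 8.72 and knockout monocytes 104, 127, 93.6 and 122. Knockout monocytes were far above the rest, knockout macrophages overlapped wild-type monocytes, and wild-type macrophages were lowest. The monocyte ratio was 11.9 (means 9.36 ± 4.17 and 112 ± 15.4, SD, n = 4), and the deposited log2 difference was 2.30.

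Tmem242 encodes a membrane protein that takes part in assembling the mitochondrial ATP synthase. Wild-type macrophages had 238, 311, 279.8 and 259 normalized reads and knockout macrophages 1351, 1409, 1179.6 and 1319.8. Wild-type monocytes had 128, 135, 201 and 124, and knockout monocytes 894, 604, 687 and 676. No adjoining groups overlapped, in the order wild-type monocytes, wild-type macrophages, knockout monocytes and knockout macrophages. The means were 272 ± 31.2 and 1315 ± 97.5 in macrophages and 147 ± 36.2 and 715 ± 125 in monocytes (SD, n = 4). The deposited log2 differences were 1.65 and 1.56.

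Of the 8 genes tested in macrophages, 8 were called between genotypes at an adjusted p under 0.05, where 5.7% of 12568 genes were called: 3 were higher in knockout (2.57% of all genes) and 5 lower (3.13%). In monocytes 7 of 9 were called, where 3.32% of 12867 were: 4 were higher (1.4%) and 3 lower (1.92%). Libraries of the 2 genotypes did not overlap for 8 of 8 tested genes in macrophages and 8 of 9 in monocytes, against 13.1% and 11.1% of all genes. Since these contrasts chose the genes, the counts say how the choice was made and no more. Their median difference was -0.44 in macrophages and 0.29 in monocytes on the deposited log2 scale, against 0.00 and -0.01 over all genes tested. The authors' deposited table, another fit of the same libraries, has all 9 differences with the signs given here. In the authors' deposited table Tmem242 stands at 2.28 and 2.27 and Hebp1 at 4.44 and 6.38 (log2, macrophages and monocytes). In monocytes that table also calls Cib1, at -0.25, and does not call Gsg1, at 0.59 (log2).

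**Figure D2:**
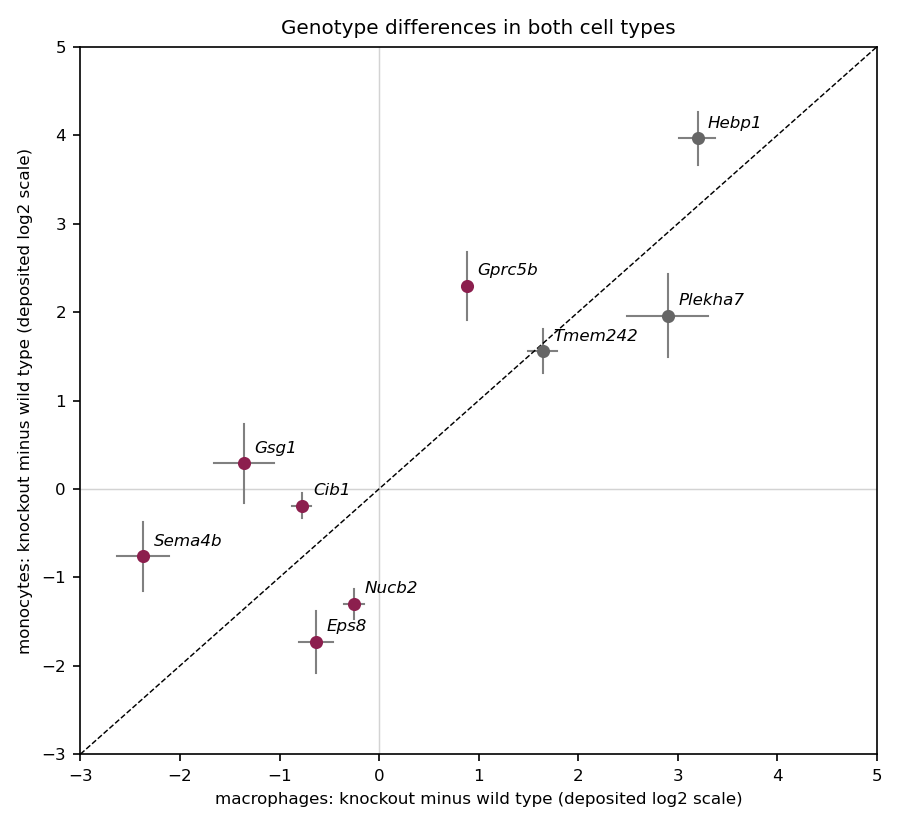
Knockout minus wild type on the deposited log2 scale in macrophages (x axis) and monocytes (y axis) for the 9 genes, with 95% intervals as grey lines; the dashed line marks equal differences, and dark red marks genes whose 2 differences were called unequal. Tmem242 lies next to the line at 1.65 and 1.56, and Gprc5b carries no macrophage interval because it was not tested there.

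Whether a genotype difference was larger in one cell type was tested with limma on all 16 libraries, as the knockout effect in macrophages minus that in monocytes, adjusted over 13134 genes. This difference is built from the same values that chose the genes. Of the 9 genes, 6 were called, where 0.617% of all genes were: 2 had a positive sign (0.358%) and 4 a negative one (0.259%). Exact permutation of the 8 mice, two-sided, gave p = 0.0286, the smallest the design allows, for each gene but Tmem242. That p is not adjusted over genes, and the share of all genes that reach it was not counted. It was the same for Hebp1 and Plekha7, which limma did not call, so it does not tell the genes apart.

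Nucb2 had the smallest adjusted p, with a difference of 1.05 ± 0.09 (SE, 95% interval 0.86 to 1.24, limma adjusted p = 5.53e-06). In single mice, macrophages minus monocytes was 0.02, -0.05, 0.04 and -0.01 for wild type and, for knockout, 1.12, 1.14, 1.01 and 0.93 (deposited log2). Both libraries of a wild-type mouse thus held Nucb2 levels within 0.05 of each other, and those of a knockout mouse did not. Eps8 differed in the same direction, by 1.10 ± 0.19 (0.70 to 1.51, adjusted p = 0.0139). Its adjusted p was 0.052 without mouse 1, 0.0667 without mouse 2 and 0.0503 without mouse 4. In single mice, macrophage Eps8 was below monocyte Eps8 in 4 of 4 wild-type mice and above it in 4 of 4 knockout mice.

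The genes whose effect was more negative in macrophages included Sema4b, called lower in both cell types, and Cib1 and Gsg1, not called between genotypes in monocytes by the main fit. The differences were Cib1 at -0.58 ± 0.08 (SE, -0.75 to -0.42, limma adjusted p = 0.00127), Sema4b at -1.61 ± 0.22 (-2.07 to -1.14, adjusted p = 0.00178) and Gsg1 at -1.65 ± 0.25 (-2.17 to -1.13, adjusted p = 0.00323). In single mice Sema4b was higher in macrophages by 1.08, 0.93, 1.23 and 1.39 among wild-type mice, whereas the knockout values were -0.58, -0.10, -0.10 and -1.01. Gprc5b, higher in knockout, differed by -1.42 ± 0.31 (adjusted p = 0.0435), but it was called in just 7 of 33 alternatives. On log2(normalized reads + 1) its value was -1.45 with an adjusted p of 0.407, and 8 reads in wild-type macrophages limit it. The counting intervals of its ratios overlap, at 3.68 to 18.6 in macrophages and 8.24 to 17.1 in monocytes. Its knockout differences on the deposited log2 scale were 0.88 and 2.30 (macrophages and monocytes), against 2.91 and 3.56 in the authors' deposited table. The size of its gap between cell types thus depends on the scale.

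The genes not called were Tmem242, Hebp1 and Plekha7. Tmem242 had a difference of 0.09 ± 0.14 (SE, 95% interval -0.20 to 0.38, limma adjusted p = 0.874, exact permutation p = 0.571). Gaps as large as those of Nucb2 or Sema4b lie outside this interval, and a gap inside it was not detectable with these libraries. Hebp1 had -0.77 ± 0.18 (-1.14 to -0.40, adjusted p = 0.0532). With the mouse number as a block, which pairs both libraries of an animal, the Hebp1 adjusted p was 0.0114, and on log2(normalized reads + 1) the difference was -1.93 (-2.63 to -1.23, adjusted p = 0.0127). Plekha7 had 0.94 ± 0.29 (0.32 to 1.56, adjusted p = 0.187), and on log2(normalized reads + 1) its interval ran from -0.79 to 3.83.

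**Figure D3:**
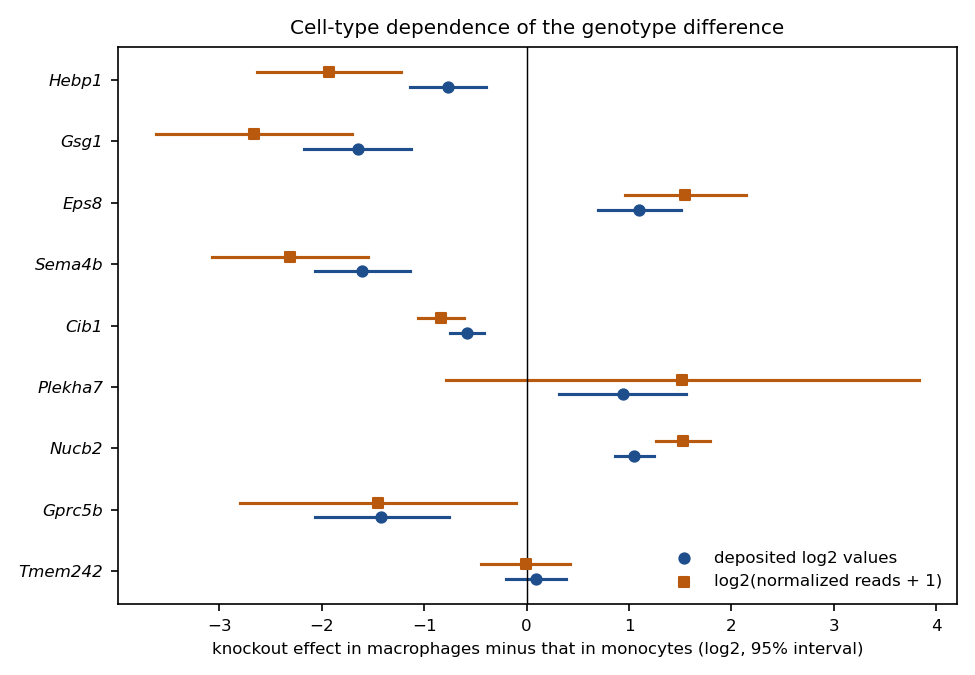
Knockout effect in macrophages minus that in monocytes for each gene, with 95% intervals, on the deposited log2 values (blue circles) and on log2(normalized reads + 1) (orange squares). Intervals of Tmem242 span 0 on both scales, that of Plekha7 spans 0 on the second, and the Nucb2 intervals lie at 0.86 to 1.24 and 1.26 to 1.79.

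The contrast of cell types within a genotype was not among those that chose the genes, although it uses the same libraries. In wild type, 5 of 8 tested genes differed between macrophages and monocytes, where 63.4% of 12769 genes did, and in knockout 7 of 9 did, where 60.5% of 12772 did. Calls between cell types were thus common among all genes as well. Hebp1 was 5.36-fold higher in wild-type macrophages than monocytes (log2 1.15 ± 0.12, SE, limma adjusted p = 8.91e-06) and 1.37-fold higher in knockout (0.38 ± 0.12, adjusted p = 0.0198, and 0.0529 without the macrophages of mouse 7 or 0.0554 without the monocytes of mouse 8). Tmem242 was 1.85-fold higher in wild-type macrophages (0.58 ± 0.10, adjusted p = 0.000503) and 1.84-fold higher in knockout ones (0.67 ± 0.09, adjusted p = 2.64e-05).

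For the other genes the contrast of cell types was as follows in each genotype. Eps8 was lower in wild-type macrophages (log2 -0.62 ± 0.08, SE, limma adjusted p = 9.48e-05) and higher in knockout ones (0.48 ± 0.16, adjusted p = 0.0238, with values up to 0.0611 when single libraries were left out). Sema4b was 2.95-fold higher in wild-type macrophages (1.16 ± 0.10, adjusted p = 1.61e-06) and at -0.45 in knockout (95% interval -0.86 to -0.04, adjusted p = 0.055, and 0.0431 with the mouse block). Gsg1 was 5.86-fold higher in wild-type macrophages (adjusted p = 6.04e-06) and at -0.06 in knockout (-0.46 to 0.34, adjusted p = 0.8). Nucb2 was at 0.00 in wild type (-0.14 to 0.14, adjusted p = 0.999) and 2.87-fold higher in knockout macrophages (1.05 ± 0.06, adjusted p = 3.98e-08). Cib1 was at -0.09 in wild type (-0.19 to 0.01, adjusted p = 0.0992, and 0.0255 with libraries centred on their median) and at -0.68 ± 0.06 in knockout (adjusted p = 1.82e-06). Plekha7 was at -0.18 in wild type (-0.71 to 0.35, adjusted p = 0.539) and 2.05-fold higher in knockout macrophages (adjusted p = 0.000761), and Gprc5b was 7.87-fold higher in knockout monocytes (adjusted p = 1.63e-05). In wild type Gprc5b was 4.87-fold higher in monocytes without overlap, but it did not pass the filter there and was not tested.

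**Figure D4:**
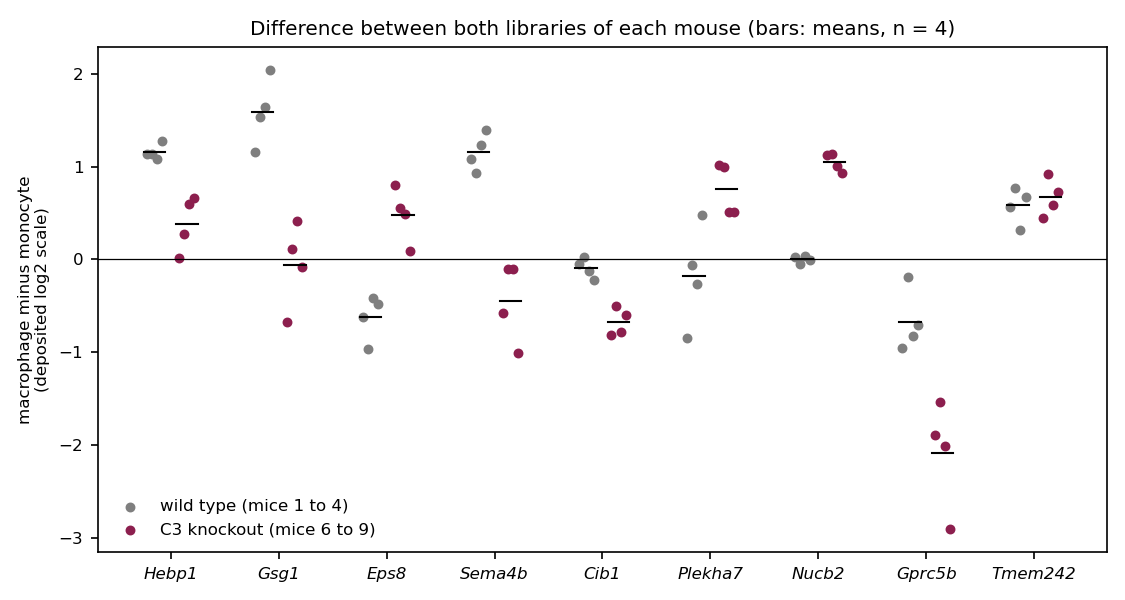
Macrophage minus monocyte value (deposited log2 scale) in each of the 8 mice, by genotype, for the 9 genes; bars are means of 4 mice. Nucb2 lies between -0.05 and 0.04 in wild-type mice and between 0.93 and 1.14 in knockout mice, whereas the mice of both genotypes overlap for Tmem242.

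Levels between genes can be compared only per kilobase of exon. In wild-type macrophages Nucb2 (956 ± 68.9 normalized reads per kb, SD, n = 4) and Cib1 (892 ± 52.1 per kb) led and overlapped, followed by Eps8 (229.6 ± 18.5 per kb), Tmem242 (148 ± 16.97 per kb), Sema4b (64.1 ± 1.16 per kb), Gsg1 (54.4 ± 5.05 per kb) and Hebp1 (29.8 ± 5.87 per kb). Plekha7 and Gprc5b were the lowest at 0.256 and 0.415 per kb. In knockout macrophages Nucb2 (753 ± 22.2 per kb), Tmem242 (716 ± 53.1 per kb) and Hebp1 (647 ± 43.8 per kb) were highest. Plekha7 reached 10.1 per kb there, from almost no reads in wild type.

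Around the genes, 96 neighbours within 1 Mb were tested in each cell type. Of these, 24 (25%) were called between genotypes in macrophages, 7 higher and 17 lower in knockout, and 26 (27.1%) in monocytes, 10 higher and 16 lower. The shares over all genes were 5.7% and 3.32%. Of 94 neighbours tested in both, 15 (16%) were called in both, against 1.35% of 12383 genes. The stretches were picked because differences cluster there, so these shares and the genotype values of single neighbours are given without a test. Where the difference of effects between cell types is tested for a neighbour, it is built from those same values. Within 5 Mb the shares were 23.1% and 20.2%. The median difference of the neighbours was -0.06 and -0.03 (deposited log2), and higher and lower genes lay side by side.

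On chromosome 6, Emp1, an epithelial membrane protein gene 108.2 kb from Gsg1, averaged 3997 ± 477 normalized reads in wild-type and 6079 ± 706 in knockout macrophages (SD, n = 4). In monocytes it went from 4212 ± 820 to 14294 ± 2823, and its knockout effect differed between cell types by -0.85 (deposited log2, limma adjusted p = 0.00936). Gucy2c, a guanylyl cyclase gene, was lower in knockout in both, at 75.8 against 11.0 in monocytes. Ptpro, a receptor tyrosine phosphatase gene next to Eps8, was higher in both by 0.33 and 0.39 (deposited log2) while Eps8 was lower. Hist4h4 was called in monocytes at 0.88. Strap, on the other side of Eps8, was at -0.09 and -0.04 and not called.

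Beside Sema4b and Cib1 on chromosome 7, Hddc3 had 13.02 and 74.2 normalized reads in wild-type and knockout macrophages and 8.95 and 35.1 in monocytes. Blm, a DNA helicase gene, was at -0.83 and -1.29 (deposited log2, macrophages and monocytes), and Man2a2, a Golgi mannosidase gene, at -0.76 and -0.68. Rccd1 and Ngrn were called in monocytes and not in macrophages, at 0.53 and 0.48, but their difference of effects was not (limma adjusted p = 0.495 and 0.441). Idh2, the mitochondrial isocitrate dehydrogenase gene 71.4 kb from Sema4b, was at -0.36 in macrophages and 0.10 in monocytes, a difference of -0.46 between cell types (limma adjusted p = 0.0164). Gdpgp1, on the other side of Cib1, was not called, at -0.35 and -0.21.

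Near Plekha7 and Nucb2, the lipid kinase gene Pik3c2a was at -0.10 in macrophages and called at -0.54 in monocytes (deposited log2), and its effect did not pass the test between cell types (limma adjusted p = 0.205). The nearest tested genes of Nucb2, the uncharacterised AV356131 and 4732496C06Rik, were at -0.98 and -2.17 in monocytes, and the latter at -2.08 in macrophages. Around Gprc5b, 4 of 15 neighbours were called in both cell types and were lower in knockout: Itpripl2 (-0.49 and -0.63), Rps15a (-0.42 and -0.55), Vps35l (-0.44 and -0.39) and Arl6ip1 (-0.22 and -0.37). The nearest tested neighbours of Gprc5b, Knop1 and Thumpd1, were between -0.18 and 0.08 and not called. Gprc5b overlaps Iqck on the opposite strand by 606 bases, and Iqck averaged 9.04 normalized reads or fewer.

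Around Tmem242 on chromosome 17, Dynlt1b, a dynein light chain gene with near-identical copies, was higher in knockout by 0.86 and 0.87 (deposited log2). Synj2, a phosphoinositide phosphatase gene, was lower at -0.36 and -0.44. Serac1 and the sorting nexin gene Snx9 were called lower in macrophages, and Tulp4 in monocytes, but none of these was called for the difference between cell types. The nearest tested genes on either side, Arid1b and Zdhhc14, were between -0.09 and -0.03 and not called.

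The ribosomal protein genes Rps13 and Rps15a of these stretches have processed copies elsewhere, and reads of near-identical copies can be assigned to either. These copies were looked up after their values were seen. Rps13 fell from 1817 ± 58.0 normalized reads to 1249.9 ± 72.5 in knockout macrophages and from 1892 ± 167 to 1201 ± 155 in monocytes (SD, n = 4). Rps13-ps1, on chromosome 8, went from 1.85 to 368 ± 44.4 in macrophages and from 0.544 to 308 ± 35.5 in monocytes, opposite in sign to Rps13. Rps13-ps2, on chromosome 7, went the same way as Rps13, from 24.5 to 3.52 in macrophages and from 25.4 to 2.61 in monocytes. Rps15a went from 1161 to 773 in macrophages and 1095 to 649.9 in monocytes, and Rps15a-ps8, on chromosome 4, from 0.987 to 88.9 and from 0.470 to 80.8. Other copies of Rps15a that were tested, Rps15a-ps4 and Rps15a-ps6, were at 0.17 and 0.05 in macrophages and at -0.09 and 0.19 in monocytes (deposited log2), none called. How reads were divided between these copies was not tested, and the values of these genes and copies are uncertain for that reason.

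**Figure D5:**
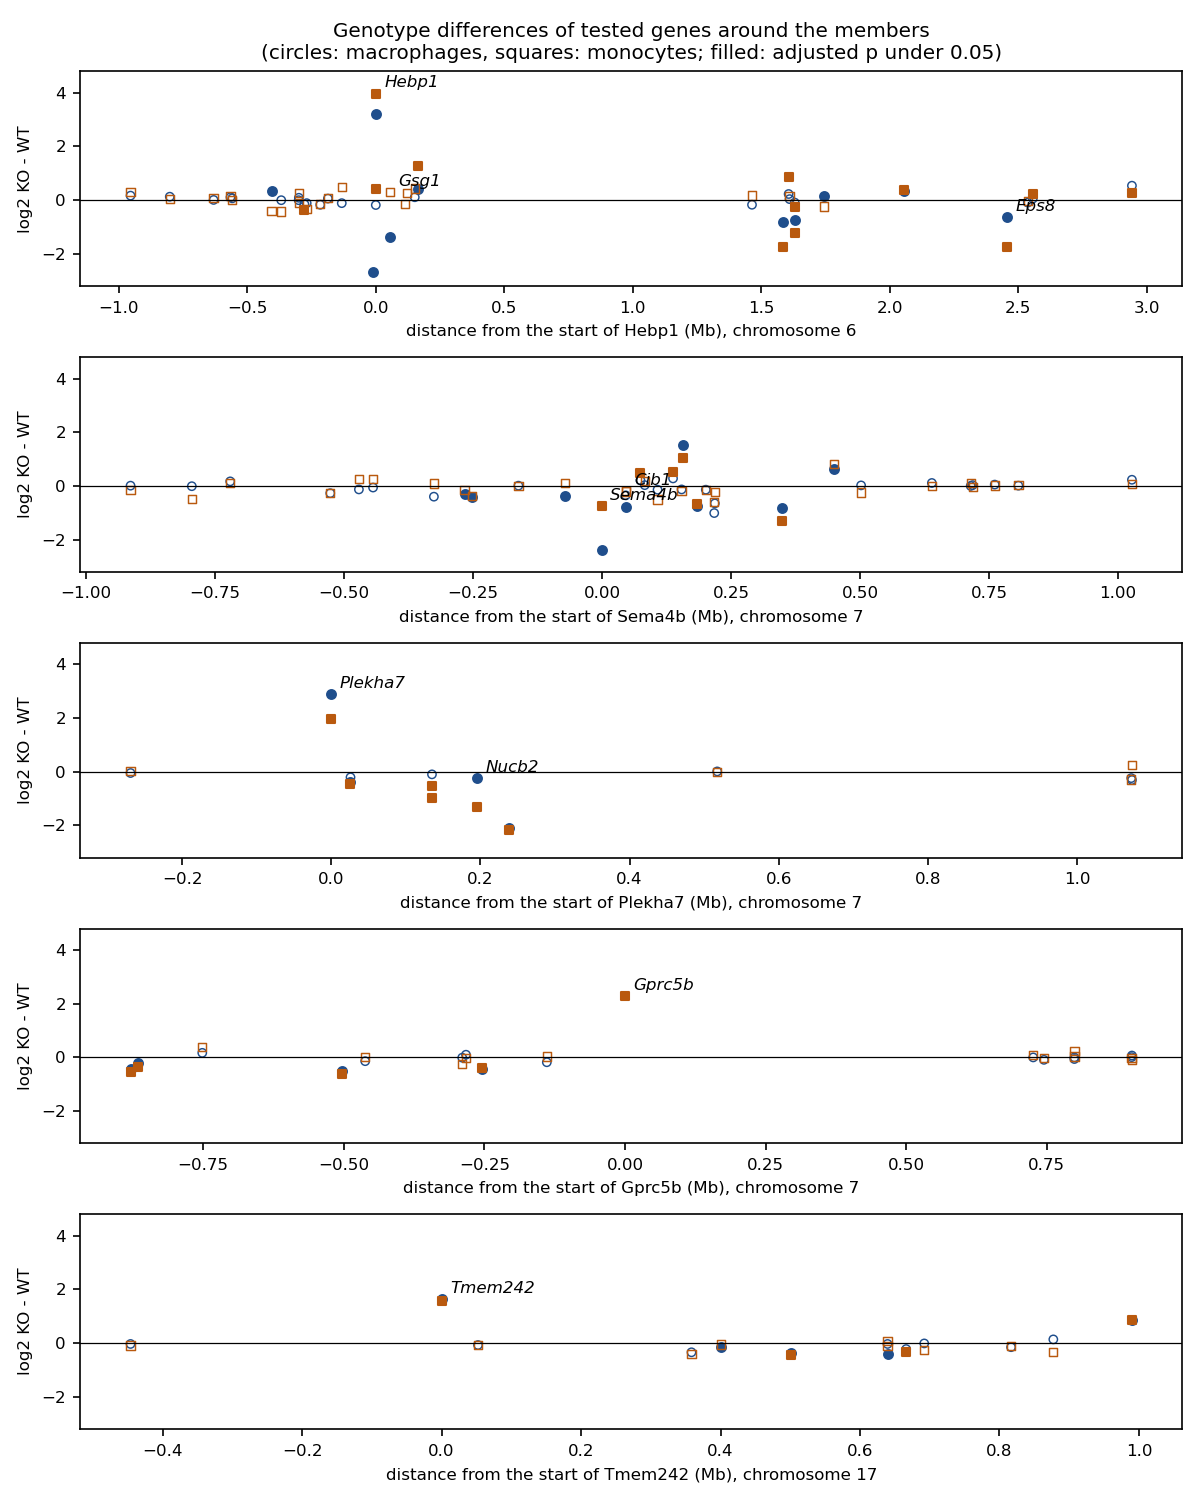
Knockout minus wild type (deposited log2 scale) of tested genes against distance in Mb from the start of the first named gene of each stretch, for macrophages (circles) and monocytes (squares); filled symbols passed an adjusted p under 0.05. Higher and lower genes lie side by side, and most neighbours are open symbols near 0.

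Similarity of profile is given as Pearson r, a description over 16 libraries that share the same 4 groups. The chromosome of each of the 9 genes held from 5.04% to 7.66% of tested genes. Of the 20 genes most similar in profile, 5 were on the same chromosome for Sema4b and 5 for Cib1. The count was 3 for Plekha7, Nucb2, Gprc5b and Tmem242, 2 for Gsg1 and 1 for Hebp1 and Eps8. These counts were not tested against that share. Genes with the most similar profile over the 16 libraries were mostly on other chromosomes, as most tested genes are. They were Cox18 (r = 0.987) and Hddc3 (r = 0.971) for Tmem242, Rps13-ps1 (r = 0.972) for Hebp1, Timmdc1 (r = 0.961) for Plekha7, Cers5 (r = 0.95) and Arl6ip1 (r = 0.917) for Nucb2 and Dennd1c (r = 0.943) and Inpp5f (r = 0.935) for Gprc5b. For the others they were Smarcd1 (r = 0.925) and Rsph3a (r = 0.918) for Sema4b, Gvin1 (r = 0.918) for Eps8, Sirt2 (r = 0.916) for Cib1 and Zswim1 (r = 0.895) and Dchs1 (r = 0.893) for Gsg1. Among the 9 genes, Tmem242 followed Hebp1 (r = 0.97) and Plekha7 (r = 0.94), and Nucb2 ran opposite to Gprc5b (r = -0.94). Nucb2 and Cib1, both lower in knockout, did not follow each other (r = 0.02).

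Relatives and partners of the 9 genes, from a list of 33, were counted in the same fits. In macrophages 2 of 19 tested relatives were higher and none lower in knockout, 10.5% with a median of -0.01, and in monocytes 1 of 21 was higher and 2 lower, 14.3% with a median of -0.04 (deposited log2). Over all genes tested the shares called were 5.7% and 3.32%. Eps8l1, a paralogue of Eps8, was at 0.77 ± 0.19 (SE, limma adjusted p = 0.0361) in macrophages, and Sema4a, another semaphorin of the class of Sema4b, at 0.27 ± 0.06 (adjusted p = 0.0256). In monocytes Pak1, the kinase bound by Cib1, was at 0.26 ± 0.06 (adjusted p = 0.037), Plekha6 at -1.08 ± 0.22 (adjusted p = 0.0205) and the formyl peptide receptor gene Fpr1 at -0.71 ± 0.16 (adjusted p = 0.0435). In the other cell type none of these was called. Eps8l1 was at 0.68 and Sema4a at 0.13 in monocytes, and Pak1 at 0.02, Plekha6 at -0.70 and Fpr1 at -0.67 in macrophages. A call in 1 cell type alone thus does not show that an effect depends on cell type. Nucb1, the paralogue of Nucb2, was at 0.04 and -0.04 and Cib2 at -0.01 and -0.04, none called. Ctnnd1, Abi1 and Sos1, partners of Plekha7 and Eps8, were not called either.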

How the data were processed

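RNA was sequenced from 16 libraries of 5 ng RNA each, made with the SMART-Seq v4 kit, which does not mark strand. The tools named by the submitters' processing notes are STAR 2.7.2b, bcl2fastq 2.19.0.316 and DESeq2, with the build GRCm38. The read counter and the annotation were not stated. Values of the main matrix are log2 values deposited by the authors without a named transform, and they follow a regularized logarithm. Per the file headers, the authors' 2 comparison tables hold a base mean (a signal: reads over size factors), log2 fold changes, a Wald score and p-values with adjusted p-values. The matrix had 0 columns of other samples.

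To get reads, the regularized logarithm was solved for each value given the deposited base mean. Of the values for 20443 genes, 73.9% lay within 0.05 of a whole read (99.5% at base means of 1 to 10 and 21.9% in the most abundant genes). After rounding, the base mean was met within 1% for 99.9%. The solution imposes that match apart from rounding, so it is no check of the reads. For the 9 genes the largest distance from a whole read was 0.49, close to the largest that is possible. Values within 0.05 of a whole read made up 12.5% for Cib1, 25% for Nucb2 and 56.2% for Eps8. The share was 93.8% for Tmem242 and 100% for the other genes. Single reads of Cib1, Nucb2 and Eps8 are thus approximate. The design assumed counts or values for a log2 scale; as the files held log2 values, limma 3.58.1 (R 4.3.3; trend, robust) was fitted to them for genes with a linear value of at least 10 in at least 4 libraries. The threshold for a call was 0.05 after Benjamini-Hochberg adjustment over all genes tested. Genotype fits used 8 libraries and the difference of effects all 16. On simulated data for the macrophage genotype fit (12568 genes), 91% of genes changed by a log2 of 1 and 100% of those changed by a log2 of 2 were recovered. For the difference of effects (13134 genes) it was 85% and 99%. With 200 genes changed in each simulation, there were 9 false calls in the genotype fit and 18 in the difference of effects.

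Both cell types came from the same animals, so mouse numbers pair libraries: correlations of deviations from group means ran from 0.031 to 0.417 within a mouse and from -0.323 to 0.188 between mice. No library repeated another. Labels do not say that mice were littermates or processed together. Counting intervals are exact at 95%. Gene IDs matched GENCODE M21 in 99.8% of cases, and promoters come from RefSeq GRCm38.p6.

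The 9 genes, the neighbours, relatives and marker lists were chosen with earlier results of these data known. Named beside the 9 were C3, Adgre1, Ly6c2, the nearest tested gene on each side, up to 5 called neighbours within 1 Mb per stretch, the 2 genes most like each, and called relatives (up to 6). Predicted genes were counted and not named unless nearest or overlapping. Alternatives were no filter, a filter at 30, median centring, log2(normalized reads + 1) and (+ 8), no trend and robust estimation, all 16 libraries in 1 fit, the mouse block, single libraries or mice left out, the authors' table and, added after the data were seen, voom on recovered reads and the block on log2(normalized reads + 1).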

Additional observations from a re-analysis of the deposited data

Results flagged for a closer look

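In wild-type monocytes, the Tmem242 level of mouse 3 (200.99 normalized reads) stood apart from those of the other mice. On the deposited log2 scale its gap to the nearest of them was 0.8294 of the group's range. Chance flags about 1 in 20 groups in this way, and 36 groups were checked. The Tmem242 difference between genotypes in monocytes ran from 1.47 to 1.66 with single libraries left out.

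The knockout effect differed between the cell types, by the test of that difference, for Gsg1 (-1.65), Eps8 (1.10), Sema4b (-1.61), Cib1 (-0.58), Nucb2 (1.05) and Gprc5b (-1.42), each as macrophages minus monocytes on the deposited log2 scale. For each of these 6 genes, the within-mouse differences of the 4 wild-type and the 4 knockout mice did not overlap. The same was true of Hebp1 and Plekha7, which were not called, so it does not set the 6 apart. These differences hold the values that chose the genes, and the share of all genes without overlap was not counted. The Gprc5b call was lost in 26 of 33 alternatives and the Eps8 call in 3 of 33.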

How the results depend on the processing

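No result changed direction under any alternative where it was called. The number of genes called for the difference of effects was 81, and it was 34 to 125 with single libraries or mice left out. With the mouse number as a replicate block, which pairs libraries, it was 251, and 218 with that block on log2(normalized reads + 1). Genotype calls over all genes were 717 in macrophages (458 to 656 with single libraries left out) and 427 in monocytes (237 to 459 with single libraries left out, 1329 in the authors' deposited table and 981 when 1 fit held all 16 libraries). The cause was not tested. The 9 genes gave 8 to 9 calls in macrophages, 6 to 8 in monocytes and 4 to 7 for the difference of effects. The block brought Hebp1 (difference of effects) and Sema4b (cell types in knockout) past the threshold and changed no other call of the 9 genes in the fits between cell types. Called genotype differences of the 9 genes were larger on the scales of reads than on the deposited scale. Few reads limit Gprc5b and Plekha7 in wild type.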
